A study of Mus musculus with 88 samples.

Results

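Embryonic stem cell (ESC) lines of the mouse kept in 2i medium were compared with lines kept in serum, in F1 lines of the strains 129X1/SvJ and C57BL6 (the B6 cross). The comparison covers 8 of the 26 RNA-seq libraries in a series of 88 samples and was set by medium and sex label alone. The 2i XX lines were 3 and 4, the 2i XY lines 2 and 6, the serum XX lines 17 and 46, and the serum XY lines 10 and 16. Each library came from a different line, every line was at passage 3, and no genotype other than strain and sex was labelled. Mouse embryonic fibroblast (MEF) libraries, from F1 embryo cells of 129X1/SvJ and MSM/Ms at passage 1, served as the reference for fibroblast RNA. In the MEF labels the title and the description of a library gave opposite sexes, so no result rests on the sex of a MEF. A further 4 lines in 2i (XX and XY, 2 each) and 2 lines in the medium labelled S (1 XX, 1 XY) from the same MSM/Ms cross (the MSM cross, passage 3) were set beside the B6 result. The other media of the B6 cross, t2i and a2i, entered the fit with 8 libraries to estimate the spread and are not described.

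2i stands for a pair of kinase inhibitors, one against MEK, the kinase that activates ERK, and the other against GSK3, the kinase that marks beta-catenin for destruction. Blocking MEK removes the output of FGF signalling, the main drive of ESCs towards differentiation, while blocking GSK3 relieves repression of self-renewal genes by Tcf7l1. Serum medium leaves both kinases active, and ESCs in it are known as a mixed population with high DNA methylation. Values are RPKM, reads scaled to transcript length and to the mapped reads of the library, which can be compared between genes. Differences are 2i minus serum on log2(RPKM + 1), averaged over the XX and the XY difference with equal weight, with the standard error (SE) of limma's fit. A gene was called where its p-value, adjusted by Benjamini-Hochberg over all 13150 genes tested, was under 0.05. Values for lines of a group are given in the order in which the lines are listed above.

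Read totals were not used because the values are RPKM, and an estimate from the steps between low values put depth at 0.768 (2i XY line 6) to 1.78 (serum XX line 17) times that of 2i XX line 3. Between 11314 and 12558 genes stood at 1 RPKM or more in a library. The serum libraries held fibroblast RNA, and it was measured first. The 22 fibroblast markers stood at a median of 8.53% of their MEF level in serum XX line 17, 13.7% in serum XX line 46, 11.3% in serum XY line 10 and 14.8% in serum XY line 16. In the 2i lines the same median was 0.0118% to 0.0392%, with 7 or 8 of the 22 markers at 0 in each library. The summed level of the markers ranged from 1376 to 2055 RPKM in serum and from 7.42 to 16.4 RPKM in 2i. A gene was set aside where the mean serum share of 12.1%, times its MEF level, came to at least 10% of its mean over the 8 libraries. This set aside 6027 genes, all 22 markers among them, and kept 7123. In bulk RNA, fewer cells of a type and less RNA per cell cannot be told apart, here and in every result that follows. The MEF libraries may differ from the fibroblasts in the serum cultures, and that was not tested.

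**Figure D1:**
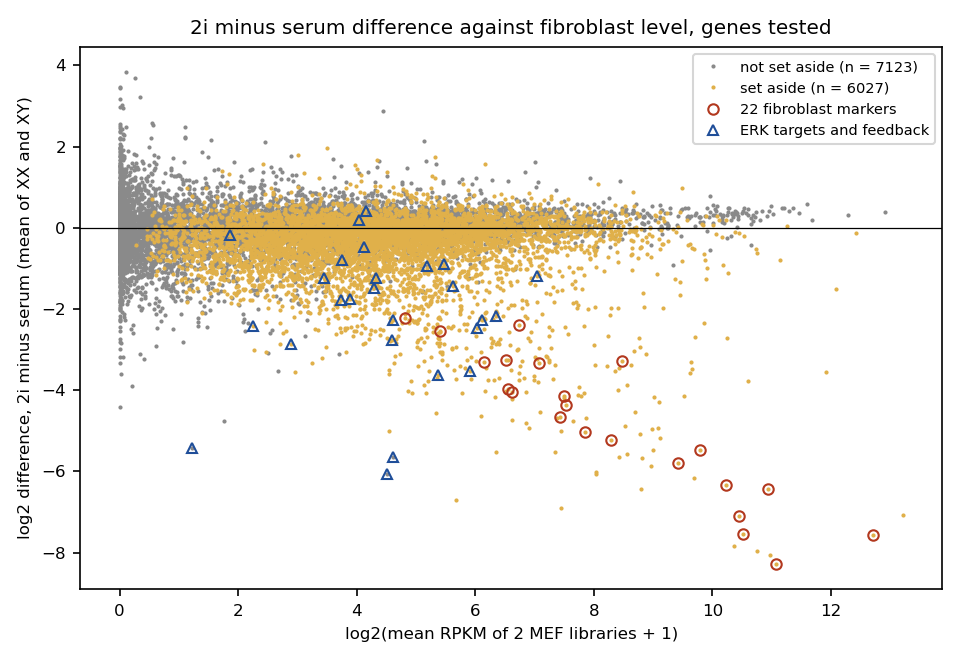
Each point is 1 of the 13150 genes tested, with its MEF level on the x axis (log2 of the mean RPKM of 2 libraries plus 1) and its 2i minus serum difference (log2) on the y axis. The 22 fibroblast markers (red circles) all lie below 0 and are all set aside, whereas Fos, Egr1 and Fosb, the lowest of the ERK target genes (blue triangles), are not set aside.

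Over all genes tested, 2215 were higher in 2i (16.8%) and 4042 were lower (30.7%). Among the 7123 genes kept, 1750 were higher (24.6%) and 1458 were lower (20.5%). The median difference was -0.09 over all genes and 0.04 over those kept. The balance of higher and lower calls moved with scaling. Quantile normalization gave 3785 higher and 2816 lower, and subtracting the fibroblast share from each library gave 3732 higher and 2412 lower. When each subtracted library was also rescaled, by dividing its values by the share left after the fibroblast share, 2090 were higher and 3492 lower. The median over all genes moved from -0.09 to 0.07 under quantile normalization and to 0.10 after subtraction. Among the genes kept, the split was 2635 higher (37.0%) and 993 lower (13.9%) under quantile normalization, and 2212 (31.1%) and 1223 (17.2%) after subtraction. After subtraction and rescaling it turned, with 1218 higher (17.0%) and 1853 lower (25.9%). The last of these settings was chosen after seeing the data. Counts in the gene groups below are read against these shares, for kept members against 24.6% and 20.5%, or against those of another setting where it is named. A gene was tested where it reached 1 RPKM in at least 2 of the 16 libraries fitted. A gene under 1 RPKM in every 2i line could pass, among these 8 libraries, through serum alone. Its call could then hardly be other than lower. Such genes include Egr1, Fosb, Fgf8, Cyp26a1, Stra6, Pax6, H2-Q7, Fgr and Hand1, and the list counts below include them. Ina, Myrf, Car4, Mmp3 and Gzme, among the most lowered genes, are such genes as well. Fgf15, Lin28b, Pou3f1 and Gdf1 reached 1 RPKM in only 1 2i line each. Among these 8 libraries they too could not pass without serum.

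All 8 libraries expressed the pluripotent core. Pou5f1, which encodes Oct4, stood at 1469 to 1837 RPKM in the 2i lines and 1235 to 1656 RPKM in the serum lines, and the small difference (log2 difference 0.24, SE 0.08, adjusted p = 0.031) was not called under quantile normalization or after subtraction and rescaling (log2 0.06 and 0.05), in a fit of the 8 libraries alone (log2 0.24, adjusted p = 0.050), or without any of lines 4, 6, 16 or 46 (log2 0.18 to 0.21). Sox2, its partner factor, stood at 135 to 219 RPKM in the 2i lines and 135 to 187 RPKM in the serum lines and was not called (log2 difference 0.11, adjusted p = 0.34). Nanog was higher by 0.29 (adjusted p = 0.018), a call lost under quantile normalization (log2 0.17), after subtraction and rescaling (log2 0.10) and without any of lines 4, 6, 10 or 46 (log2 0.24 to 0.27). Of the 10 pluripotency markers, all kept, 3 were higher and 3 lower in 2i, with 1 and 4 under quantile normalization and 0 and 3 after subtraction and rescaling. The summed pluripotency markers overlapped, with 8731 to 14874 RPKM in 2i and 8351 to 11154 RPKM in serum.

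Extraembryonic markers summed to more in the serum libraries, and those of primitive endoderm most of all in serum XY line 10. The sums include markers set aside for fibroblast RNA, 6 of 12 for primitive endoderm and 2 of 10 for trophectoderm. Pdgfra, in the primitive endoderm list, is also a fibroblast marker, and the part of fibroblast RNA in the sums was not tested. The summed primitive endoderm markers stood at 23.8 to 34.4 RPKM in 2i, 212 to 277 RPKM in the serum lines 16, 17 and 46, and 488 RPKM in line 10. Of the 12 tested, 9 were lower in 2i and 6 were kept, of which 3 were lower. Gata4, a transcription factor of that lineage, read 1.10 and 0.847 RPKM in the 2i XX lines, 0.544 and 1.07 in the 2i XY lines, 2.49 and 1.99 in the serum XX lines and 16.3 and 2.84 in the serum XY lines. Without line 10, 8 of the 10 primitive endoderm markers then tested were lower. Of the 10 trophectoderm markers tested, 5 were lower and 2 higher, with summed levels of 79.8 to 101 RPKM in 2i and 112 to 224 RPKM in serum. Of 13 matched markers of 2-cell-like cells 11 did not pass the filter on low values, and the 2 that did summed to 0 in every 2i library and to 1.0 to 5.58 RPKM in serum. Among the 8 libraries they could pass through serum alone, so their calls are not used. The part of these cells in the results below was not tested, and without line 10 most of the gene lists below kept counts within 1.5 times. The exceptions with at least 5 calls were genes higher in 2i, which went from 5 to 3 of 20 in the Polycomb list, from 5 to 3 of 14 in the iron and metal list and from 7 to 4 of 20 in the one-carbon list.

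The immediate early genes of the ERK pathway gave the largest differences of any kept gene. Fos (mm10 chr12:85473890-85477273), a transcription factor induced within minutes of ERK activation, read 0.589 and 0.811 RPKM in the 2i XX lines, 2.51 and 1.45 in the 2i XY lines, 261 and 261 in the serum XX lines and 90.3 and 79.7 in the serum XY lines. Egr1, a zinc finger factor of the same kind, read 0.0249 and 0.0740 RPKM in the 2i XX lines, 0.0731 and 0.0974 in the 2i XY lines, 78.3 and 82.8 in the serum XX lines and 33.4 and 34.7 in the serum XY lines. Fosb (chr7:19302696-19310051), a paralogue of Fos, read 0.0795 and 0.0786 RPKM in the 2i XX lines, 0.0776 and 0.207 in the 2i XY lines, 66.5 and 85.4 in the serum XX lines and 31.8 and 25.1 in the serum XY lines. All 4 2i lines were below all 4 serum lines for each gene, as they were for 2931 of the 13150 genes tested. Within serum the XX lines were above the XY lines. The log2 differences were -6.07 for Fos, -5.65 for Egr1 and -5.41 for Fosb, with SE of 0.12 to 0.16 and adjusted p of 1.0e-11, 5.1e-12 and 2.4e-12. At the MEF level the fibroblast share would come to 3.02% of the mean level of Fos, 9.88% of that of Egr1, just inside the limit of 10%, and 0.621% of that of Fosb. Of 26 ERK targets and feedback genes tested, 23 were lower and none was higher (median -1.76), and of the 6 kept 5 were lower. Egr1 and Fosb are among these 5, and among the 8 libraries they reached 1 RPKM in serum alone. Their calls could hardly be other than lower and add no weight to the list count. After subtraction and rescaling 20 of the 26 were lower.

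ERK target genes were not uniform among the genes kept. Etv4, an ETS factor induced by FGF, stood at 11.1 to 28.2 RPKM in the 2i lines and 47.6 to 63.6 RPKM in the serum lines (log2 difference -1.48, SE 0.26, adjusted p = 4.4e-04). Its relative Etv5 read 142 and 106 RPKM in the 2i XX lines, 130.5 and 105 in the 2i XY lines, 45.3 and 88.6 in the serum XX lines and 128 and 121 in the serum XY lines and was the kept member without a call (log2 difference 0.43, adjusted p = 0.084). The 2i and serum values of Etv5 overlapped, serum XX line 17 being the lowest of the 8. Etv4 and Etv5 were chosen for mention after their values were seen, as were Fgf4, Sp5, Lef1, Id1, Id3, Cat, Gsr, Gpx4, Bnip3, Pfkp, Ddit3 and Shmt2 in what follows.

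FGF ligands divided by type. Fgf8, a ligand of gastrulation, read 0.330 and 0.163 RPKM in the 2i XX lines, 0.161 and 0.476 in the 2i XY lines, 6.71 and 9.70 in the serum XX lines and 21.1 and 8.77 in the serum XY lines. Fgf17, of the same subfamily, read 0.809 and 0.376 RPKM in the 2i XX lines, 4.88 and 5.2 in the 2i XY lines, 11.7 and 13.5 in the serum XX lines and 30.4 and 30.4 in the serum XY lines. Fgf15 stood at 0.388 to 1.41 RPKM in the 2i lines and 5.37 to 6.76 RPKM in the serum lines. None of these ranges overlapped between media, and the log2 differences were -3.18, -2.74 and -1.99 (adjusted p = 6.7e-07, 7.1e-09 and 6.9e-07). Fgf4, the ligand that ESCs themselves make, moved the other way, with 85.0 to 128 RPKM in the 2i lines and 49.2 to 99.2 RPKM in the serum lines (log2 difference 0.51, adjusted p = 3.7e-04). Of 8 kept FGF ligands and receptors, 4 were lower and 2 higher.

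**Figure D2:**
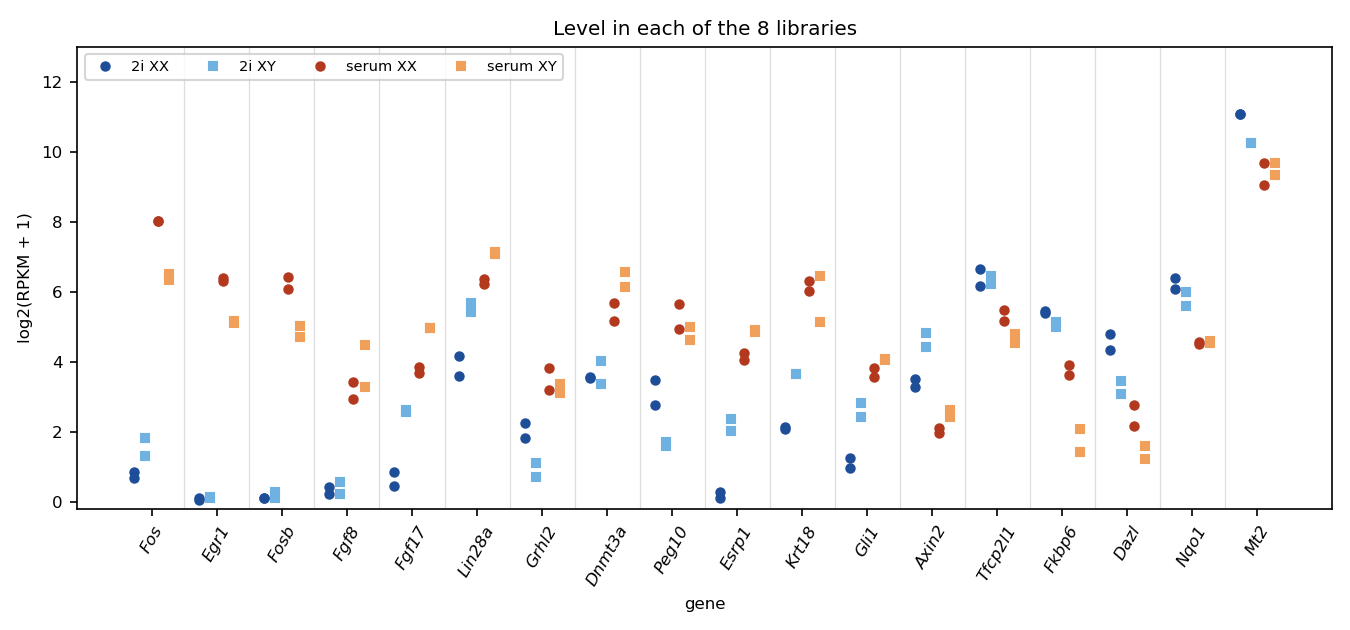
Each point is the level of a gene, as log2(RPKM + 1), in 1 library, with 2i XX (dark blue circles), 2i XY (light blue squares), serum XX (red circles) and serum XY (orange squares), 2 lines each. Fos, Egr1, Fosb, Fgf8, Fgf17, Esrp1 and Krt18 lie lower in all 4 2i libraries, and Axin2, Tfcp2l1, Fkbp6, Dazl, Nqo1 and Mt2 lie higher.

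Direct targets of beta-catenin moved in both directions. Of 10 kept targets, 5 were higher and 3 lower, or 6 and 1 under quantile normalization, and over all 15 tested, set-aside genes included, 5 were higher and 7 lower. Axin2, a negative feedback component of the pathway, read 10.3 and 8.64 RPKM in the 2i XX lines, 27 and 20.6 in the 2i XY lines, 3.34 and 2.92 in the serum XX lines and 5.12 and 4.31 in the serum XY lines (log2 difference 1.72, SE 0.19, adjusted p = 1.0e-05). Tnfrsf19, a receptor of the TNF family and a known Wnt target, read 11.3 and 10.1 RPKM in the 2i XX lines, 6.14 and 6.89 in the 2i XY lines, 2.11 and 2.98 in the serum XX lines and 2.52 and 1.85 in the serum XY lines (log2 difference 1.49, SE 0.12, adjusted p = 5.2e-07). Notum, a secreted enzyme that inactivates Wnt ligands, read 60.5 and 39.9 RPKM in the 2i XX lines, 37.5 and 29.0 in the 2i XY lines, 33.6 and 15.3 in the serum XX lines and 8.44 and 8.76 in the serum XY lines, with serum XX line 17 above 2i XY line 6 (log2 difference 1.45, SE 0.27, adjusted p = 7.9e-04). The genes lower in 2i included Lef1 (1.64 to 4.23 RPKM in the 2i lines and 3.76 to 14.1 RPKM in the serum lines, log2 difference -1.36, adjusted p = 1.9e-04). Sp5, a zinc finger target gene, stood at 2.36 to 4.91 RPKM in the 2i lines and 0.419 to 1.83 RPKM in the serum lines (log2 difference 1.34, SE 0.32, adjusted p = 0.0042).

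The promoter of Sp5 is shown because it is a raised target whose start site window holds the TCF/LEF core. Promoter windows here run from 250 bases before to 50 bases after an annotated start, 5′ to 3′ on the gene's strand, from RefSeq on GRCm38.p6. The letters searched were CTTTGAT on either strand, and matches are in capitals. They occur in 1225 of 32851 windows (3.73%), and in windows of 2 of the 12 Wnt targets with an entry, Sp5 and Tnfrsf19. The window of Sp5 lies at chr2:70474673-70474972, plus strand.
Sp5: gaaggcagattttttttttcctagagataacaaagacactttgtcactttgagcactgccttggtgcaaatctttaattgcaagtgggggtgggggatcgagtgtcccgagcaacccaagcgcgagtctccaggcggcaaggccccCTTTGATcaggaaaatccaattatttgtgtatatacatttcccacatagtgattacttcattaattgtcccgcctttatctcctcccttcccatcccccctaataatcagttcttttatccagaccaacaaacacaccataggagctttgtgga

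Naive pluripotency factors leaned upward with exceptions. Of 18, all kept, 9 were higher and 3 lower (median 0.31), and 6 and 4 after subtraction and rescaling. Tfcp2l1, a factor downstream of LIF and Wnt, read 98.7 and 70.9 RPKM in the 2i XX lines, 86.3 and 74.1 in the 2i XY lines, 43.6 and 34.8 in the serum XX lines and 22 and 26.7 in the serum XY lines (log2 difference 1.38, SE 0.14, adjusted p = 4.2e-06). Klf4 read 94.6 and 69.1 RPKM in the 2i XX lines, 109 and 57.1 in the 2i XY lines, 248 and 245 in the serum XX lines and 99.9 and 109.8 in the serum XY lines and was lower in 2i (log2 difference -1.0, adjusted p = 6.0e-04). Its high values were those of the serum XX lines, and the 2i range overlapped that of the serum XY lines. Dppa3, which protects imprints in the zygote, read 58.6 and 75.6 RPKM in the 2i XX lines, 19.6 and 24.2 in the 2i XY lines, 45.0 and 73.8 in the serum XX lines and 105 and 110.4 in the serum XY lines. Its effect differed by sex, 0.20 in XX and -2.25 in XY lines (adjusted p of the difference = 0.0041).

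The RNA-binding and epiblast genes fell. Lin28a, which blocks maturation of let-7 miRNAs, read 16.9 and 11.1 RPKM in the 2i XX lines, 50.4 and 42.2 in the 2i XY lines, 81.5 and 73.6 in the serum XX lines and 133 and 139.8 in the serum XY lines (log2 difference -1.98, SE 0.18, adjusted p = 1.7e-06). Lin28b stood at 0.376 to 1.01 RPKM in the 2i lines and 2.64 to 4.92 RPKM in the serum lines (log2 difference -1.45, SE 0.11, adjusted p = 2.7e-07), and Utf1, a chromatin protein of pluripotent cells, at 66.1 to 137 RPKM in the 2i lines and 274 to 369 RPKM in the serum lines (log2 difference -1.77, SE 0.10, adjusted p = 1.8e-08). Of 12 core factors, all kept, 7 were lower and 1, Pou5f1, was higher. Of 9 kept formative and primed epiblast genes, 7 were lower and none higher, or 4 and 1 under quantile normalization. Grhl2, an epithelial factor that opens enhancers in the primed state, stood at 0.622 to 3.78 RPKM in the 2i lines and 7.67 to 13.3 RPKM in the serum lines (log2 difference -1.91, SE 0.17, adjusted p = 1.4e-06). Pou3f1, known as Oct6, stood at 0.429 to 1.45 RPKM in the 2i lines and 3.16 to 4.34 RPKM in the serum lines (log2 difference -1.42, SE 0.12, adjusted p = 1.2e-06). Dnmt3b, a de novo DNA methyltransferase, read 21.9 and 16.0 RPKM in the 2i XX lines, 18.9 and 16.3 in the 2i XY lines, 39.0 and 34.4 in the serum XX lines and 93.3 and 40.9 in the serum XY lines (log2 difference -1.34, SE 0.23, adjusted p = 3.9e-04), with serum XY line 10 standing above the other serum lines.

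Genes of DNA methylation moved in both directions. Dnmt3a read 10.8 and 10.6 RPKM in the 2i XX lines, 15.3 and 9.27 in the 2i XY lines, 50.7 and 34.9 in the serum XX lines and 93.5 and 69.7 in the serum XY lines (log2 difference -2.27). Dnmt3l, the catalytically inactive cofactor of the de novo enzymes, read 76.7 and 66.5 RPKM in the 2i XX lines, 32.2 and 29.6 in the 2i XY lines, 177 and 117 in the serum XX lines and 148 and 128 in the serum XY lines. Its log2 difference was -1.0 in XX and -2.12 in XY lines (adjusted p of the difference = 0.026). Gadd45a, a stress protein linked to demethylation, stood at 20.6 to 49.7 RPKM in the 2i lines and 95.3 to 117 RPKM in the serum lines (log2 difference -1.57, SE 0.15, adjusted p = 2.2e-06). Dnmt1, the maintenance enzyme, was not called (60.5 to 97.8 RPKM in the 2i lines and 65.1 to 74.3 RPKM in the serum lines, log2 difference 0.19, adjusted p = 0.19), although it was without 2i XX line 4 (log2 0.31, adjusted p = 0.038). Uhrf1, which recruits Dnmt1 to replicated DNA, stood at 212 to 299.7 RPKM in the 2i lines and 169 to 190.0 RPKM in the serum lines (log2 difference 0.51, SE 0.10, adjusted p = 9.0e-04). Of 16 kept genes of this machinery 6 were lower and 2 higher.

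LIF signalling, which maintains ESCs through STAT3, had lower feedback transcripts in 2i. Socs3, the STAT3-induced inhibitor of the receptor complex, read 61.2 and 57.3 RPKM in the 2i XX lines, 70.5 and 37.7 in the 2i XY lines, 97.7 and 138 in the serum XX lines and 104 and 129 in the serum XY lines (log2 difference -1.05, SE 0.18, adjusted p = 3.5e-04). Socs2 stood at 15.8 to 30.3 RPKM in the 2i lines and 34.7 to 55.7 RPKM in the serum lines (log2 difference -0.95, SE 0.10, adjusted p = 9.1e-06). Lif itself read 3.59 and 4.00 RPKM in the 2i XX lines, 0.960 and 1.15 in the 2i XY lines, 7.83 and 10.3 in the serum XX lines and 4.30 and 3.97 in the serum XY lines, so that the 2i XX lines overlapped the serum XY lines (log2 difference -1.19, SE 0.17, adjusted p = 8.1e-05). Of 7 kept genes 4 were lower and none higher. In the MSM cross none of Socs3, Socs2 and Lif was called (log2 0.49, -0.35 and -0.21, adjusted p = 0.50, 0.18 and 0.63).

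Nodal and BMP genes were mixed. Lefty1, an antagonist of Nodal, read 56.8 and 64.8 RPKM in the 2i XX lines, 25.6 and 11.9 in the 2i XY lines, 111 and 125 in the serum XX lines and 197 and 169 in the serum XY lines (log2 difference -2.13, SE 0.29, adjusted p = 6.5e-05). Its effect was -0.94 in XX and -3.31 in XY lines (adjusted p of the difference = 0.028). Of 10 kept genes of that pathway 4 were lower and 3 higher. The BMP list had 14 of its 16 tested members set aside. Among those, Id1 and Id3, inhibitors of differentiation factors and known BMP targets, stood at 0.964 to 2.54 RPKM in the 2i lines and 19.5 to 36.3 RPKM in the serum lines and at 1.36 to 3.39 RPKM in the 2i lines and 51.4 to 88.5 RPKM in the serum lines. Their differences of -3.17 and -4.12 became -1.62 and -3.49 after subtraction and rescaling. In the same way 19 of 20 Hippo/YAP and SRF targets were set aside, and all 19 calls among the 20 were lower.

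Notch and Hedgehog genes fell as a group. Of 11 kept, 9 were lower and none higher, or 6 lower under quantile normalization. Gli1, the transcriptional readout of Hedgehog signalling, read 1.39 and 0.928 RPKM in the 2i XX lines, 6.12 and 4.33 in the 2i XY lines, 10.7 and 13.2 in the serum XX lines and 15.8 and 15.4 in the serum XY lines. Its fall was larger in XX lines, -2.59 in XX and -1.43 in XY lines (adjusted p of the difference = 0.023). Notch3, a receptor, stood at 3.64 to 8.73 RPKM in the 2i lines and 11.1 to 21.7 RPKM in the serum lines (log2 difference -1.35, SE 0.15, adjusted p = 1.1e-05). Jag2, a Notch ligand, stood at 1.9 to 2.97 RPKM in the 2i lines and 5.11 to 8.83 RPKM in the serum lines (log2 difference -1.34, SE 0.15, adjusted p = 1.2e-05).

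Genes of epithelial junctions and simple keratins were among the most uniformly lowered. Of 20 kept, 16 were lower and 1 higher (median -0.92), and of all 23 tested, 19 and 1. Esrp1, a splicing regulator of epithelial isoforms, read 0.0836 and 0.207 RPKM in the 2i XX lines, 4.11 and 3.04 in the 2i XY lines, 18.2 and 15.7 in the serum XX lines and 28.9 and 27.9 in the serum XY lines (log2 difference -3.33, SE 0.16, adjusted p = 3.6e-09). Krt18, a keratin of simple epithelia, read 3.24 and 3.38 RPKM in the 2i XX lines, 11.5 and 11.7 in the 2i XY lines, 77.7 and 63.8 in the serum XX lines and 86.5 and 34.2 in the serum XY lines (log2 difference -3.09, SE 0.22, adjusted p = 1.8e-07). Cldn6, a claudin of tight junctions, read 3.25 and 2.95 RPKM in the 2i XX lines, 11.7 and 14.5 in the 2i XY lines, 45.1 and 39.0 in the serum XX lines and 63.5 and 69.2 in the serum XY lines (log2 difference -2.83, SE 0.17, adjusted p = 2.9e-08). In each case the 2i XX lines were the lowest, the 2i XY lines next and the serum lines highest. For 10 of the 23 the effect differed between XX and XY, with 9 of the 10 lower and 1 higher in XX relative to XY, where over all genes tested 5.02% were lower and 3.15% higher by this test. Krt18 is also a marker of trophectoderm, whose list is given above, and the part of such cells was not tested.

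Germline genes, many of them kept silent by promoter methylation in somatic cells, went both ways. Of 18 tested, all kept, 6 were higher and 7 lower. The median was -0.30 and turned to 0.12 under quantile normalization. Fkbp6, a chaperone of the piRNA pathway, read 41.3 and 42.5 RPKM in the 2i XX lines, 34.3 and 31.2 in the 2i XY lines, 11.4 and 14.0 in the serum XX lines and 1.68 and 3.20 in the serum XY lines (log2 difference 2.49, SE 0.15, adjusted p = 4.6e-08). Dazl, an RNA-binding protein of germ cells, read 19 and 26.7 RPKM in the 2i XX lines, 7.51 and 10.0 in the 2i XY lines, 3.52 and 5.83 in the serum XX lines and 1.31 and 2.02 in the serum XY lines (log2 difference 1.98, SE 0.17, adjusted p = 1.0e-06). Mael, another piRNA factor, fell, reading 0.893 and 1.30 RPKM in the 2i XX lines, 3.03 and 4.24 in the 2i XY lines, 19.2 and 17.4 in the serum XX lines and 9.53 and 8.33 in the serum XY lines (log2 difference -2.16, SE 0.21, adjusted p = 3.5e-06). Fkbp6 and Mael thus moved in opposite directions, and both differed by sex, Fkbp6 with 1.65 in XX and 3.33 in XY lines (adjusted p of the difference = 0.0063) and Mael with -3.21 in XX and -1.11 in XY lines (adjusted p of the difference = 0.011).

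The promoters of Fkbp6 and Mael are shown because both hold the palindromic E-box CACGTG, in capitals below and the genes moved in opposite directions. The letters occur in 2349 of the 32851 windows (7.15%) and in windows of 11 of the 20 listed germline genes with an entry. Fkbp6 has 2 matches, at chr5:135349995-135350294, minus strand, the first of 2 annotated starts. Mael has 1 match, at chr1:166238695-166238994, minus strand.
Fkbp6: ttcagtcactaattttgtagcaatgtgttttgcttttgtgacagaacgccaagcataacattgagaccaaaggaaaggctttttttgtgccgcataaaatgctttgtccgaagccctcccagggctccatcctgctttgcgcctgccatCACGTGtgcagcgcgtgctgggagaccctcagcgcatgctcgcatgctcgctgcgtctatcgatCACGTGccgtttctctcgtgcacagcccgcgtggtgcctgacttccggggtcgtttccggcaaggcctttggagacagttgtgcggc
Mael: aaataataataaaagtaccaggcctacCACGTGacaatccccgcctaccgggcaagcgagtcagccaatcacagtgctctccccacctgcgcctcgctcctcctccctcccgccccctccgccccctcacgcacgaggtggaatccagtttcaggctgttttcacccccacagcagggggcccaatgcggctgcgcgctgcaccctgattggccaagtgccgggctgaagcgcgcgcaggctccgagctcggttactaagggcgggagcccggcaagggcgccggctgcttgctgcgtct

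Imprinted genes, expressed from the copy of 1 parent, held some of the widest ranges. Plagl1, a paternally expressed zinc finger gene, read 84.9 and 74.6 RPKM in the 2i XX lines, 24.7 and 22.7 in the 2i XY lines, 6.73 and 12.5 in the serum XX lines and 3.38 and 1.91 in the serum XY lines (log2 difference 2.88, SE 0.20, adjusted p = 1.5e-07). Peg10, paternally expressed and derived from a retrotransposon, read 10.1 and 5.85 RPKM in the 2i XX lines, 2.27 and 2.01 in the 2i XY lines, 49.2 and 29.5 in the serum XX lines and 30.8 and 23.5 in the serum XY lines (log2 difference -2.66, SE 0.21, adjusted p = 4.3e-07). Phlda2, maternally expressed and a restrictor of placental growth, read 7.62 and 6.33 RPKM in the 2i XX lines, 28.7 and 22.4 in the 2i XY lines, 55.3 and 124 in the serum XX lines and 210.0 and 219 in the serum XY lines (log2 difference -3.22, SE 0.21, adjusted p = 9.4e-08). Of 8 kept paternally expressed genes 3 were higher and 3 lower, and of 4 kept maternally expressed genes 3 were lower. Slc22a18, in the same cluster as Phlda2, had opposite signs by sex, -1.72 in XX and 0.78 in XY lines (adjusted p of the difference = 3.3e-04), reading 0.538 and 0.370 RPKM in the 2i XX lines, 8.04 and 6.57 in the 2i XY lines, 3.25 and 4.41 in the serum XX lines and 3.60 and 4.06 in the serum XY lines. These totals do not separate the parental alleles.

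Antioxidant genes rose. Of 14 kept selenoprotein and antioxidant genes 9 were higher and 1, Gpx4, was lower, and 7 and 1 after subtraction and rescaling. Nqo1, a quinone reductase and classic Nrf2 target, read 67.0 and 83.7 RPKM in the 2i XX lines, 47.6 and 62.4 in the 2i XY lines, 21.5 and 22.6 in the serum XX lines and 23.0 and 22 in the serum XY lines (log2 difference 1.48, SE 0.11, adjusted p = 3.5e-07). Gpx2, a glutathione peroxidase, read 28.7 and 29.9 RPKM in the 2i XX lines, 70.9 and 76.8 in the 2i XY lines, 15.6 and 10.7 in the serum XX lines and 14.1 and 28.8 in the serum XY lines, so that serum XY line 16 reached the 2i XX lines (log2 difference 1.47, SE 0.18, adjusted p = 3.0e-05). Gstm1, a glutathione transferase with close paralogues whose reads may be shared, stood at 96.6 to 186 RPKM in the 2i lines and 42.8 to 87.3 RPKM in the serum lines (log2 difference 1.19, SE 0.16, adjusted p = 5.3e-05). Cat, which encodes catalase, stood at 89.9 to 112 RPKM in the 2i lines and 39.5 to 58.4 RPKM in the serum lines (log2 difference 0.95), and Gsr, glutathione reductase, at 111 to 159.6 RPKM in the 2i lines and 72.7 to 86.8 RPKM in the serum lines (log2 difference 0.78). Gpx4, the selenoprotein that repairs lipid peroxides, stood at 829.6 to 1219 RPKM in the 2i lines and 1602 to 2200.3 RPKM in the serum lines (log2 difference -0.92, adjusted p = 3.4e-04).

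Metal handling genes moved in both directions. Mt1 and Mt2, neighbouring genes for the metallothioneins that bind zinc and copper, were both higher. Mt2 read 2173 and 2157 RPKM in the 2i XX lines, 1220.1 and 1227 in the 2i XY lines, 534 and 821 in the serum XX lines and 644 and 815 in the serum XY lines (log2 difference 1.23, SE 0.13, adjusted p = 5.2e-06). Mt1 read 1321 and 1266 RPKM in the 2i XX lines, 804 and 848 in the 2i XY lines, 394 and 473 in the serum XX lines and 431 and 568 in the serum XY lines (log2 difference 1.16, SE 0.10, adjusted p = 7.1e-07). Neither overlapped between media, and the rise of each was larger in XX lines, with Mt2 at 1.71 in XX and 0.76 in XY lines (adjusted p of the difference = 0.037) and Mt1 at 1.58 in XX and 0.74 in XY lines (adjusted p of the difference = 0.018). Slc40a1, ferroportin, the exporter of iron, fell, reading 1.81 and 1.24 RPKM in the 2i XX lines, 0.814 and 0.717 in the 2i XY lines, 15.4 and 9.79 in the serum XX lines and 11.8 and 4.2 in the serum XY lines (log2 difference -2.31, SE 0.26, adjusted p = 9.9e-06). Of 7 kept iron and metal genes 4 were higher and 1 lower.

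The promoters of Mt1 and Mt2 are shown because the genes rose together. Only the letters TGCGCNC, a form of the metal response element, were searched, on both strands, and they are in capitals. They occur in 5055 of the 32851 windows (15.4%) and in 5 of the 10 listed iron and metal genes with an entry. Mt1 has 1 match, at chr8:94178839-94179138, plus strand, and Mt2 has 2, at chr8:94172368-94172667, plus strand.
Mt1: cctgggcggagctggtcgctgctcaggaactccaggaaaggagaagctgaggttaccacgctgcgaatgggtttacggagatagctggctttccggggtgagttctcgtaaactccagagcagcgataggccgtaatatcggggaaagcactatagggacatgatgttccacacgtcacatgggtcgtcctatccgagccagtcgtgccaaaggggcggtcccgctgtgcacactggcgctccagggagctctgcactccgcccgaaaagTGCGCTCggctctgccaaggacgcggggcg
Mt2: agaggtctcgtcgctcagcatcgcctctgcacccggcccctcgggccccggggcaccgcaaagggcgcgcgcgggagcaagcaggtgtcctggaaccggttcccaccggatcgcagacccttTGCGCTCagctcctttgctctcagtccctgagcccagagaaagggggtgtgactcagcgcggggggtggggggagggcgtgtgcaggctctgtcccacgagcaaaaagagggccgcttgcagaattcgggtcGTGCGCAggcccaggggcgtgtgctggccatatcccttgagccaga

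Glycolytic and hypoxia-responsive genes were lower more often than higher. Of 20 kept, 9 were lower and 3 higher. Pdk1, the kinase that keeps pyruvate out of mitochondria, read 16.4 and 29.7 RPKM in the 2i XX lines, 51.9 and 48.1 in the 2i XY lines, 100.4 and 90.2 in the serum XX lines and 127 and 166 in the serum XY lines (log2 difference -1.79, SE 0.19, adjusted p = 7.2e-06). Slc16a3, the lactate exporter, stood at 19.8 to 26.9 RPKM in the 2i lines and 47.0 to 59.6 RPKM in the serum lines (log2 difference -1.20, SE 0.26, adjusted p = 0.0021), and Bnip3, a mitophagy gene induced by low oxygen, at 39.2 to 61.8 RPKM in the 2i lines and 90.4 to 132 RPKM in the serum lines (log2 difference -1.09). Ldhb, the lactate dehydrogenase subunit that favours pyruvate, read 608 and 764 RPKM in the 2i XX lines, 1125 and 1311 in the 2i XY lines, 291 and 469 in the serum XX lines and 405 and 603 in the serum XY lines and was higher (log2 difference 1.09, SE 0.21, adjusted p = 8.2e-04). Pfkp was higher too, with 164 to 224 RPKM in the 2i lines and 66.1 to 113 RPKM in the serum lines (log2 difference 1.07). The list went the other way in the MSM cross, with 4 higher and 1 lower of 23 (median 0.20). There Pdk1 and Slc16a3 were not called, with log2 differences of -0.93 (adjusted p = 0.14) and 0.05 (adjusted p = 0.95), while Ldhb was, at 1.39 (adjusted p = 0.018).

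Genes of amino acid synthesis and the ATF4 response, which is switched on by amino acid shortage, differed by sex. Asns, asparagine synthetase, read 897 and 876 RPKM in the 2i XX lines, 1169 and 1184 in the 2i XY lines, 417 and 459 in the serum XX lines and 336 and 372 in the serum XY lines (log2 difference 1.38, SE 0.09, adjusted p = 5.0e-08), with 1.02 in XX and 1.73 in XY lines (adjusted p of the difference = 0.024). Cth, which makes cysteine from cystathionine, read 84.9 and 102 RPKM in the 2i XX lines, 164 and 194 in the 2i XY lines, 58.7 and 66.5 in the serum XX lines and 43.7 and 48.6 in the serum XY lines (log2 difference 1.25, SE 0.20, adjusted p = 2.7e-04). Atf3, a stress-induced factor that is also an immediate early gene, fell, reading 2.34 and 4.08 RPKM in the 2i XX lines, 2.90 and 4.53 in the 2i XY lines, 27.7 and 23.9 in the serum XX lines and 8.28 and 6.31 in the serum XY lines (log2 difference -1.76, SE 0.31, adjusted p = 4.8e-04). Of 16 kept 6 were higher and 1 lower. For 10 of all 25 the effect differed between sexes, each of the 10 being lower in XX relative to XY, against 5.02% of all genes tested. The median difference of the 25 was -0.37 in XX and 0.59 in XY lines. Ddit3 and Shmt2 were among them, with 24.2 and 25.4 RPKM of Ddit3 in the 2i XX lines and 83.8 and 84.1 RPKM in the 2i XY lines. Ddit3 is set aside for fibroblast RNA, Shmt2 is not.

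Of 15 retinoic acid targets and enzymes tested, 12 were set aside. All 3 kept, Stra8, Cyp26a1 and Stra6, were lower. Among the 8 libraries Cyp26a1 and Stra6 reached 1 RPKM in serum alone, so their calls could hardly be other than lower and carry no weight here. Stra6, at 0 to 0.0277 RPKM in the 2i lines and 0.249 to 1.30 RPKM in the serum lines, also lost its call under quantile normalization (log2 -0.36) and without any 1 of the 2i or serum XX lines (log2 -0.57 to -0.59). Stra8, the gatekeeper of meiosis, read 1.58 and 3.08 RPKM in the 2i XX lines, 5.22 and 6.71 in the 2i XY lines, 59.8 and 32.7 in the serum XX lines and 22.1 and 10.8 in the serum XY lines and fell more in XX lines, -3.80 in XX and -1.26 in XY lines (adjusted p of the difference = 0.011). In the MSM cross it was not called, at 0.13 (adjusted p = 0.88). Cyp26a1, which degrades retinoic acid, stood at 0 to 0.133 RPKM in the 2i lines and 0.301 to 2.41 RPKM in the serum lines (log2 difference -1.09, SE 0.17, adjusted p = 1.9e-04). Of the MHC class I and innate genes, 8 were kept, of which 5 were lower and 1 higher. Psmb9, an immunoproteasome subunit, stood at 0.305 to 2.05 RPKM in the 2i lines and 4.21 to 7.77 RPKM in the serum lines (log2 difference -1.80, SE 0.25, adjusted p = 7.3e-05). H2-K1, a class I heavy chain of a multigene family whose reads may be shared, stood at 10.1 to 20.3 RPKM in the 2i lines and 35.0 to 49.0 RPKM in the serum lines (log2 difference -1.38, SE 0.15, adjusted p = 8.1e-06).

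The remaining lists held calls in both directions or rest on few kept genes. Of 18 kept Polycomb and histone methyltransferase genes 5 were higher and 7 lower, and this balance turned with scaling, to 7 and 5 under quantile normalization, 7 and 6 after subtraction and 2 and 9 after subtraction and rescaling. Over all kept genes the shares in these settings moved as well, to 37.0% higher and 13.9% lower, 31.1% and 17.2%, and 17.0% and 25.9%. The same shares apply to the other lists of this paragraph. The log2 difference of Jarid2, a PRC2 cofactor, was -0.64 and that of Suz12, a core subunit, 0.50. Among 10 kept G1 regulators 3 were higher and 2 lower, with cyclin E1 (Ccne1) at -0.68 and the inhibitor Cdkn1b at 0.58. Of 15 kept one-carbon and polyamine genes 4 were higher and 2 lower, which turned to 2 and 4 after subtraction and rescaling and was 7 and 3 under quantile normalization and 8 and 2 after subtraction. Odc1, the first enzyme of polyamine synthesis, was among those lower, at -0.54. Of 8 kept p53 targets 1 was higher and 3 lower, and of 5 kept Src family kinases 1 was higher and 3 lower. For the Src family kinases this became 2 and 2 under quantile normalization and 2 and 3 after subtraction. Of 23 cholesterol genes 20 were set aside, and of 18 fatty acid genes 14. Of 7 kept neural genes 2 were higher, the neurofilaments Nefm (6.86 to 21.6 RPKM in the 2i lines and 0.496 to 1.85 RPKM in the serum lines, log2 difference 2.57) and Nefl (log2 difference 1.17), and 3 were lower, Pax6 among them (0.0492 to 0.273 RPKM in the 2i lines and 0.977 to 4.11 RPKM in the serum lines, log2 difference -1.67). Under quantile normalization 3 of the 7 were higher and 2 lower.

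**Figure D3:**
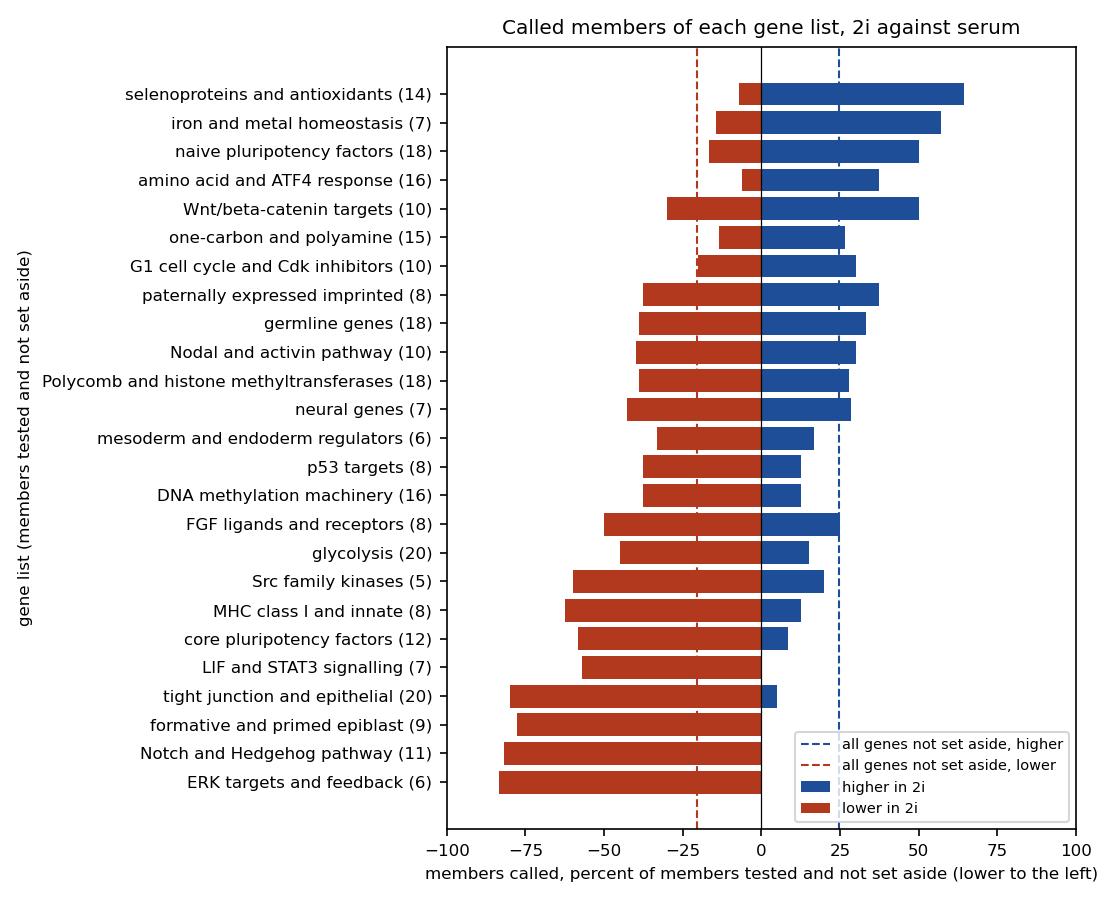
For each gene list with at least 5 members tested and kept, bars give the percent of those members called higher (blue, right) or lower (red, left) in 2i, with the number of members in parentheses. Dashed lines mark the shares over all kept genes, 24.6% higher and 20.5% lower. Notch and Hedgehog (9 of 11, or 6 under quantile normalization), epithelial (16 of 20) and epiblast (7 of 9, or 4 of 9 under quantile normalization) genes extend far to the left, and antioxidant genes (9 of 14) far to the right.

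Apart from predicted genes and unnamed clones, the most raised kept gene was Pglyrp1, a peptidoglycan recognition protein, which read 51.0 and 46.6 RPKM in the 2i XX lines, 27.6 and 24.4 in the 2i XY lines, 1.29 and 1.67 in the serum XX lines and 1.28 and 1.99 in the serum XY lines (log2 difference 3.85, SE 0.19, adjusted p = 4.5e-09). Trpm1, a cation channel known from retina and melanocytes, read 29.5 and 27.3 RPKM in the 2i XX lines, 58.4 and 61.8 in the 2i XY lines, 1.95 and 3.84 in the serum XX lines and 1.64 and 2.14 in the serum XY lines (log2 difference 3.69, SE 0.18, adjusted p = 4.5e-09). Crxos, an oocyte and ESC homeobox gene, read 51.0 and 79.1 RPKM in the 2i XX lines, 37.1 and 63.9 in the 2i XY lines, 10.1 and 11.3 in the serum XX lines and 1.54 and 1.17 in the serum XY lines (log2 difference 3.44, SE 0.30, adjusted p = 1.1e-06). Spic, an ETS factor of macrophages and early embryos, read 32.3 and 30.7 RPKM in the 2i XX lines, 14.4 and 15.6 in the 2i XY lines, 4.54 and 2.77 in the serum XX lines and 0.987 and 0.479 in the serum XY lines (log2 difference 3.03, SE 0.19, adjusted p = 4.4e-08). In each of the 4 genes every 2i line was above every serum line, as in 1205 of the 13150 genes tested. Slc4a5, a bicarbonate cotransporter, stood at 38.2 to 67.2 RPKM in the 2i lines and 1.25 to 13.8 RPKM in the serum lines, and Dmgdh, a mitochondrial enzyme of choline breakdown, at 5.03 to 7.37 RPKM in the 2i lines and 0.0415 to 0.50 RPKM in the serum lines. The remaining most raised genes were H2-Eb1, Cd3g, Plagl1, Nefm, Tcte2 and Kiss1.

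Among the most lowered genes, 3 were listed at 0 in all 4 2i libraries, so no fold is given. Car4, a membrane carbonic anhydrase, stood at 17.8 and 20.0 RPKM in the serum XX and 32.0 and 15.2 RPKM in the serum XY lines. Mmp3, a matrix metalloprotease, stood at 18.5, 24.9, 15.5 and 61.2 RPKM in the same lines, and Gzme, a granzyme of a clustered family whose reads may be shared, at 10.4, 2.89, 9.94 and 10.2 RPKM. Mmp3 stood at 2.39 RPKM and Gzme at 0.274 RPKM on average in the MEF libraries. Ina, the intermediate filament internexin, read 0.233 and 0.161 RPKM in the 2i XX lines, 0.772 and 0.303 in the 2i XY lines, 11.2 and 9.89 in the serum XX lines and 21.5 and 22.2 in the serum XY lines (log2 difference -3.59, SE 0.16, adjusted p = 2.8e-09). Myrf, a membrane-bound transcription factor, read 0.248 and 0.230 RPKM in the 2i XX lines, 0.400 and 0.303 in the 2i XY lines, 14.3 and 9.71 in the serum XX lines and 16.6 and 15.8 in the serum XY lines (log2 difference -3.52, SE 0.16, adjusted p = 2.3e-09). Among the 8 libraries Car4, Mmp3, Gzme, Ina and Myrf reached 1 RPKM in serum alone. Their calls could hardly be other than lower and carry no weight here. Nphs1, which encodes nephrin, read 3.62 and 4.08 RPKM in the 2i XX lines, 8.72 and 5.61 in the 2i XY lines, 47.7 and 48.5 in the serum XX lines and 65.6 and 64.0 in the serum XY lines (log2 difference -3.19, SE 0.14, adjusted p = 2.5e-09).

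The effect of 2i was then compared between the sexes. In XX lines 1478 genes were higher (11.2%) and 3306 lower (25.1%), and in XY lines 1674 were higher (12.7%) and 3033 lower (23.1%). The difference of the effects was called for 1074 genes, with 414 higher (3.15%) and 660 lower (5.02%) in XX relative to XY. These counts fell when single lines were left out, to 266 and 406 without 2i XX line 3, 244 and 387 without 2i XX line 4, 243 and 339 without 2i XY line 2, and 232 and 364 without serum XY line 10. Without serum XX line 17 the higher count was 246, and without serum XY line 16 the lower count was 406. The genes higher in XX lines came to 791 without line 4 and 932 without line 17, and those higher in XY lines to 1082 without line 10 and 1102 without line 16. Of 474 X-linked genes 45 were called higher (9.49%) and 14 lower (2.95%) in XX relative to XY. Over 12660 autosomal genes the shares were 2.91% and 5.09%. The median 2i minus serum difference of X-linked genes was 0.14 in XX and -0.13 in XY lines, and that of autosomal genes -0.13 and -0.06.

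The largest sex differences lay mostly within the 2i lines. Calca (chr7:114631478-114636357), which encodes calcitonin and its related peptide, read 2.16 and 3.70 RPKM in the 2i XX lines, 84.7 and 84.7 in the 2i XY lines, 32.8 and 29.1 in the serum XX lines and 20.2 and 24.1 in the serum XY lines, and its effect was -3.05 in XX and 1.9 in XY lines (adjusted p of the difference = 1.1e-05). Calb2, the calcium buffer calretinin, read 0.748 and 0.569 RPKM in the 2i XX lines, 42.1 and 44.4 in the 2i XY lines, 0.778 and 1.37 in the serum XX lines and 1.24 and 2.09 in the serum XY lines, with -0.31 in XX and 4.07 in XY lines (adjusted p of the difference = 1.1e-05). Rasgrp2, an exchange factor for Rap, read 5.87 and 7.02 RPKM in the 2i XX lines, 106 and 114 in the 2i XY lines, 82.9 and 48.9 in the serum XX lines and 67.4 and 84.3 in the serum XY lines, with -3.12 in XX and 0.54 in XY lines (adjusted p of the difference = 3.3e-05). For Calb2 the 2i XY lines stood alone, and for Rasgrp2 the 2i XX lines did. Khdc3, a protein of the oocyte subcortical complex, read 8.85 and 6.02 RPKM in the 2i XX lines, 35.1 and 33.2 in the 2i XY lines, 60.5 and 34.4 in the serum XX lines and 16.1 and 14.7 in the serum XY lines, with -2.49 in XX and 1.10 in XY lines (adjusted p of the difference = 1.4e-04). Its serum XX lines were above its serum XY lines, the reverse of 2i. Cd200, a surface glycoprotein, was low in the 2i XY lines alone, reading 15.3 and 15.7 RPKM in the 2i XX lines, 0.123 and 0.265 in the 2i XY lines, 12.3 and 9.42 in the serum XX lines and 7.4 and 9.48 in the serum XY lines.

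Cd3d, Cd3g and H2-Eb1 were high in the 2i XX lines alone. Cd3d (chr9:44981793-44987052) and Cd3g (chr9:44969572-44980431), adjacent genes for chains of the T cell receptor complex, read 24.5 and 31.5 RPKM and 66.5 and 61.4 RPKM there. In the other 6 libraries Cd3d was at most 0.774 RPKM and Cd3g at most 1.98 RPKM, and both were listed at 0 in the serum XY lines. H2-Eb1, an MHC class II chain, read 151 and 154 RPKM in the 2i XX lines, 4.71 and 4.77 in the 2i XY lines, 3.32 and 8.19 in the serum XX lines and 1.08 and 0.206 in the serum XY lines, with 4.61 in XX and 1.86 in XY lines (adjusted p of the difference = 0.0024). Rhox5 was low in the 2i XY lines and in serum XX line 17. This gene, an X-linked homeobox gene silenced by DNA methylation in many cells, read 359 and 542 RPKM in the 2i XX lines, 25.9 and 38.6 in the 2i XY lines, 64.3 and 400.1 in the serum XX lines and 392 and 212 in the serum XY lines. Its effect was 1.45 in XX and -3.15 in XY lines (adjusted p of the difference = 0.018), and its mean effect was called only without serum XX line 17 (log2 -1.50, adjusted p = 0.016).

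**Figure D4:**
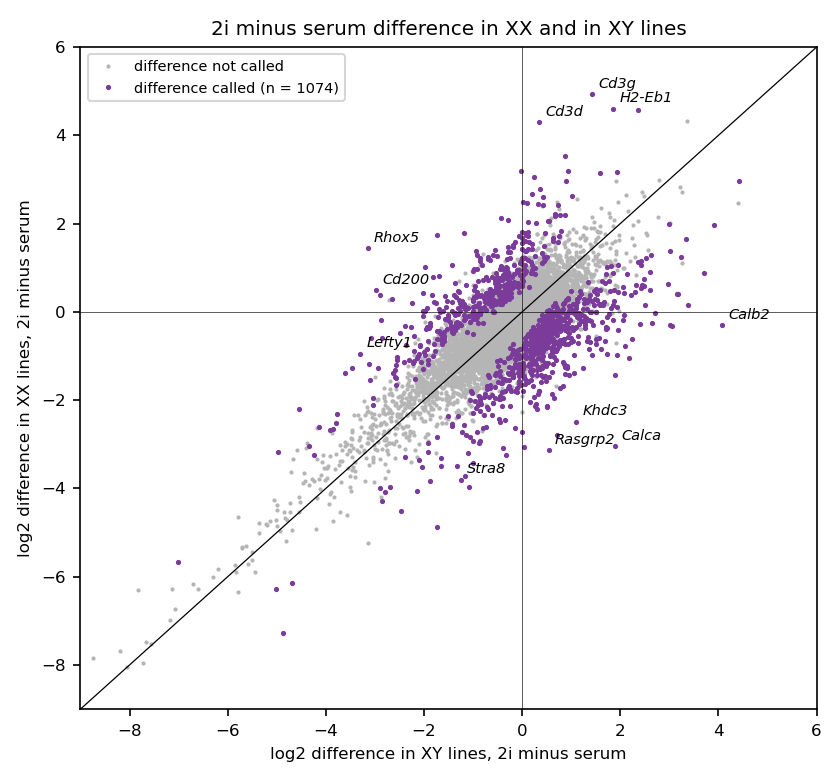
Each point is a gene, with its 2i minus serum difference (log2) in XY lines on the x axis and in XX lines on the y axis, and the diagonal marks equal effects. Purple points are the 1074 genes whose effects differed between the sexes. Calca, Rasgrp2 and Khdc3 lie below the diagonal with opposite signs in the sexes, while Rhox5 and Cd200 lie above it.

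The MSM cross gave a contrast of 2i with the medium labelled S, in lines with less fibroblast RNA than the B6 serum lines. There the fibroblast median was 0.613% and 1.93% of MEF in the S lines and 0.0476% to 0.601% in the 2i lines. With 13443 genes tested, 1124 were higher (8.36%) and 1166 lower (8.67%) in 2i. The 2 comparisons share no library but differ in strain, in the label of the medium, in the number of lines and in how sex entered the fit. Their values therefore only stand side by side. Of the 1684 kept genes higher in the B6 cross and tested in both, 1363 had the same sign (80.9%) and 496 were called the same way, against 9 called the other way. Of the 1340 kept genes lower, 1084 had the same sign (80.9%), 403 were called the same way and 12 the other way. Of the 2562 set-aside genes lower in the B6 cross, 1879 had the same sign (73.3%), and their median was -0.81 in the B6 and -0.26 in the MSM cross.

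Among the lists, the balance of calls over all members also turned between the crosses for the ATF4 list (7 higher and 2 lower of 25 in the B6 cross, 2 and 3 in the MSM cross), the one-carbon list (7 and 2 of 20, then 0 and 4), the cholesterol list (2 and 10 of 23, then 3 and 0) and the Wnt targets (5 and 7 of 15, then 2 and 1 of 14). It turned as well for the Src family kinases (1 and 4 of 9, then 1 and 0), the mesoderm and endoderm regulators (1 and 6 of 10, then 1 and 0 of 8) and the trophectoderm markers (2 and 5 of 10, then 3 and 0 of 9). Among kept genes of the B6 cross the cholesterol list had 2 higher and 0 lower of 3, and the Wnt list 5 and 3 of 10. For those lists the kept genes thus leaned the same way as the MSM cross. Over all genes of the MSM cross 8.36% were higher and 8.67% lower, and most of these list counts rest on few calls. Single genes differed in size between the crosses, and neither kind of difference was tested. Fosb stood at 0.419 and 0.876 RPKM in the MSM S lines, against 25.1 to 85.4 RPKM in the serum lines of the B6 cross, and was not called there, at -0.59 (adjusted p = 0.11). Egr1 fell in both, by 4.73 in the MSM cross (adjusted p = 0.0013). Fos changed by -2.47 there (adjusted p = 0.042), with 5.15 and 23.4 RPKM in the S lines and 0.353 to 4.24 RPKM in the 2i lines. Krt18, Axin2 and Mt2 were among the 50 named genes not called there. Their log2 differences were -1.03, 0.94 and 0.63 (adjusted p = 0.19, 0.12 and 0.11). Dnmt3b fell by 3.52 in the MSM cross (adjusted p = 3.4e-04), from 150.1 and 172 RPKM in S to 9.86 to 19.8 RPKM in 2i. Esrp1 changed by -4.32 (adjusted p = 1.9e-04), Fkbp6 by 2.58 (adjusted p = 0.0011), Dazl by 3.01 (adjusted p = 0.016) and Nqo1 by 1.58 (adjusted p = 0.0019). Of the 114 named genes 109 were tested in the MSM cross, and 98 had the same sign there. Cd200 was the named gene called in both with opposite signs, at -1.25 in the B6 and 2.55 in the MSM cross. The B6 value is a mean over sexes with unlike effects (XX minus XY 3.46), as Cd200 was low in the 2i XY lines alone.

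**Figure D5:**
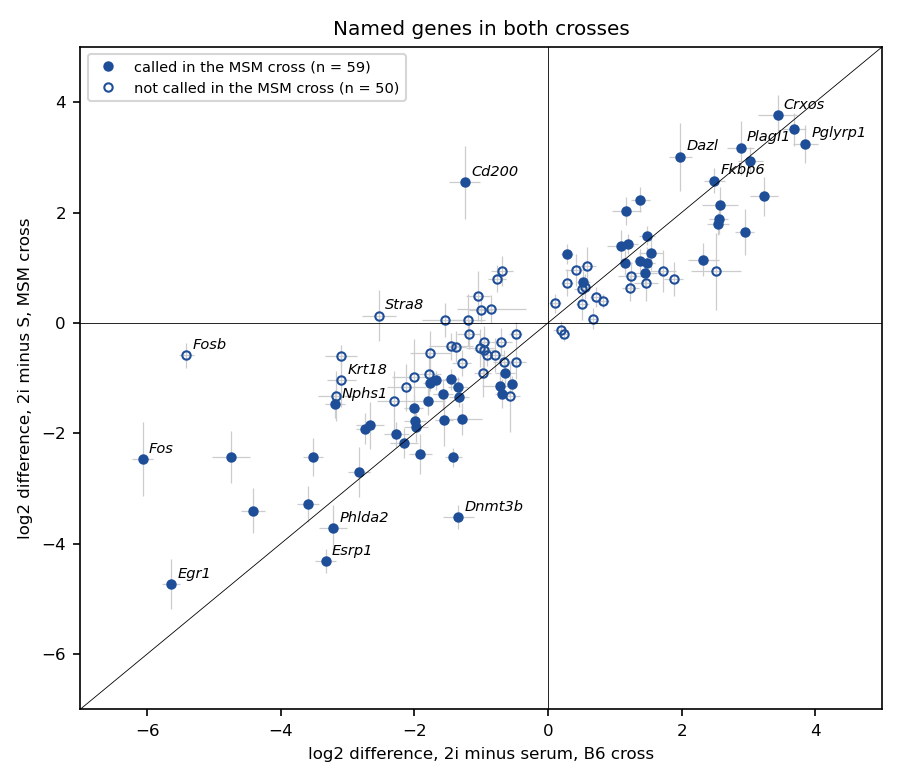
Each point is 1 of the 109 named genes tested in both crosses, with its 2i minus serum difference (log2) in the B6 cross on the x axis and its 2i minus S difference in the MSM cross on the y axis, and grey bars giving the SE. Filled points (59) were called in the MSM cross and open points (50) were not. Fosb, Stra8 and Cd200 lie far from the diagonal, while Crxos, Pglyrp1, Phlda2 and Fkbp6 lie near it.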

How the data were processed

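RNA-seq of poly(A) RNA was deposited by the authors as RPKM per gene, not as counts. The submitters' processing notes name cutadapt 1.9.1, TopHat2 2.1.0, Bowtie2 2.2.5, Cufflinks 2.2.1 and mm10; the tool that made the RPKM and its annotation are not given in the sources used here. RPKM divides by the total of a library, so foreign RNA lowers every other gene.

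From these values, log2(RPKM + 1) was fitted with limma 3.58.1 (R 4.3.3) on the 16 B6-cross libraries, with 8 groups of medium and sex and 8 residual degrees of freedom, for the 13150 of 21942 loci at 1 RPKM or more in at least 2 libraries. The MSM cross was fitted separately. P-values were adjusted by Benjamini-Hochberg over all genes tested. The labels do not say that lines came from separate embryos, so p-values measure the spread between lines. The scripts were tested on simulated data. Genes were set aside for fibroblast RNA as described in the report, at 10% of their mean.

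The comparison, the 31 gene lists and the 5 marker lists (592 genes, 12 not matched to a locus) were chosen with earlier results of these data known. Named genes were, from every list, the called and kept genes that changed most (3 at most), the 12 most raised and 12 most lowered kept genes with a mean of at least 2 RPKM (no Gm or Rik names), the 8 largest sex differences, and fixed pluripotency and DNA methylation genes. Xist is not analysed here, and some genes that the rule names are not reported here. Gene coordinates are those of the deposited table (mm10), with starts counted from 1. Promoter sequences are from RefSeq (GRCm38.p6). Alternatives were another pseudocount, no filter, other scalings, the 8 libraries alone, subtraction of fibroblast RNA, other limits for setting genes aside, and leaving out each line.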

Additional observations from a re-analysis of the deposited data

Results flagged for a closer look

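The effect of 2i differed between XX and XY lines by limma's test of the difference itself (adjusted p under 0.05) for 414 genes that were higher and 660 that were lower in XX relative to XY lines. The values below are the 2i minus serum difference in XX lines minus that in XY lines, on the log2 scale, for genes named in the report or by its rule that had this call.

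Among immediate early genes it was -2.40 for Fos, -1.27 for Egr1 and -1.46 for Fosb, the fall being larger in XX lines. Among pluripotency, Nodal and DNA methylation genes it was 2.46 for Dppa3, 2.36 for Lefty1 and 1.12 for Dnmt3l, where the XY lines fell further. Germline and retinoic acid genes gave -1.67 for Fkbp6, -2.10 for Mael and -2.55 for Stra8. The epithelial genes gave -1.28 for Esrp1 and -1.91 for Krt18, and Hedgehog signalling -1.16 for Gli1. Metabolic genes gave 0.95 for Mt2, 0.84 for Mt1 and -0.71 for Asns, and the lipid genes -0.94 for Tm7sf2 and -1.38 for Thrsp. The imprinted gene Slc22a18 gave -2.50.

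Among the most raised genes the value was -1.45 for Trpm1, -1.95 for Slc4a5, 2.75 for H2-Eb1 and 1.24 for Tcte2. The largest values were -4.94 for Calca, 4.60 for Rhox5, -4.38 for Calb2, 3.94 for Cd3d, -3.66 for Rasgrp2, -3.59 for Khdc3, 3.52 for Cd3g and 3.46 for Cd200. Each group held 2 lines, so a trait other than sex that both lines of a group share cannot be told apart from sex.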

How the results depend on the processing

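No paired analysis was possible because the 2i and serum lines of the B6 cross share no line number. Under quantile normalization 3785 genes were higher in all, 2635 among kept genes and 2711 in XY lines, while XX lines gave 2619 higher and 2166 lower. After subtraction of the fibroblast share there were 3732 higher and 2412 lower, with 2314 and 2031 in XX and 2759 and 1660 in XY lines. Setting genes aside at 5% left 1037 higher and 946 lower, and at 20% left 2265 lower. These settings change what is scaled, subtracted or counted, and no further cause was tested.

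Leaving out 1 line at a time gave 1738 to 2115 genes higher and 3440 to 3889 lower in all, and 1381 to 1680 and 1208 to 1390 among kept genes. It gave 791 to 1445 higher and 2376 to 3275 lower in XX lines, 1082 to 1700 and 2139 to 3026 in XY lines, and 232 to 416 and 339 to 509 for the sex difference. The other counts moved by less than 1.5 times. Of 1708 refits of the 114 named genes, 1659 kept direction and side of the threshold, 46 lost the call, 2 gained it, and Sox2, not called in the reported fit, turned to a log2 difference of -0.079 after subtraction and rescaling. Depth per library was only estimated, which limits what can be said of genes near 0 RPKM.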
